A study of Homo sapiens with 15 samples.

Results

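The promoters of PCDH7, RCN3 and RNF32 were chosen because they lost little methylation in HCT116 clones with UHRF1 knockdown and much of it in bulk HCT116 cells with DNMT1 knockdown. They are 3 of the 18477 protein-coding promoters that could be tested among 20033 protein-coding genes. A promoter ran from 1 kb upstream to 100 bp downstream of the annotated 5′ end, and its methylation level (mC) was the percentage of bisulfite reads at its CpGs that were read as methylated. The choice used the change from Baseline to Knockdown, so those values are given as a description with no test. For the 3 promoters tests are given only for Recovery, whose libraries the choice did not use, although the Baseline libraries are shared by both comparisons. The populations are shared too, so set against all promoters these tests are not independent of the choice.

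Whole-genome bisulfite sequencing was done in 15 libraries of HCT116, a human colorectal carcinoma cell line, carrying an shRNA against UHRF1 or DNMT1 that is switched on by doxycycline. The shRNA against UHRF1 was studied in 3 clones (Cl.3, Cl.6 and Cl.9), each grown out from a single cell, and that against DNMT1 in the bulk populations R1 and R2. There are libraries of each population at Baseline (day 14, with the DMSO vehicle in place of doxycycline), at Knockdown (day 14 with 10 ng/mL doxycycline) and at Recovery (day 28, after 14 days with doxycycline and 14 days without it). Recovery has no Baseline library of the same day, and all groups carry an shRNA. The shRNA and the kind of population (clone or bulk) cannot be told apart here, and neither RNA nor the level of UHRF1 or DNMT1 was analysed. Libraries held 315732617 to 590592161 reads at CpGs, with a median of 11 to 20 reads per CpG. Here and below a read is counted at each CpG that it covers, so a read can count many times in a dense promoter. Over the whole genome mC fell from 71.7 to 76.5% at Baseline to between 39.4 and 62.5% at Knockdown, so the bulk populations and Cl.9 (42.7%) had lost more in total than Cl.3 and Cl.6 (62.5 and 57.3%) at the stage on which the choice rests.

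Methylation of CpGs is copied onto the new DNA strand after replication by DNMT1. UHRF1 binds CpGs that are methylated on the old strand alone and helps to recruit DNMT1 to them, in part through its ubiquitin ligase activity. CpG-dense promoters are mostly free of methylation in normal cells, and in colorectal cancer cells many of them are densely methylated. PCDH7 encodes a non-clustered protocadherin, a cell surface adhesion protein of the cadherin superfamily. RCN3 encodes reticulocalbin 3, a calcium-binding EF-hand protein of the endoplasmic reticulum. RNF32 encodes a RING finger protein that is expressed mainly in the testis.

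All 3 genes lie on the plus strand (hg38, GENCODE 44). The PCDH7 promoter (ENSG00000169851.16) is chr4:30719369-30720469, the RCN3 promoter (ENSG00000142552.8) is chr19:49527003-49528103 and the RNF32 promoter (ENSG00000105982.17) is chr7:156639281-156640381. Each window runs from upstream sequence across the annotated 5′ end. The PCDH7 window ends in the 5′ untranslated part of exon 1, and the RCN3 and RNF32 windows take in their short first exons (chr19:49528003-49528058 and chr7:156640281-156640333), which are annotated as 5′ untranslated sequence, and end in the intron after them. The antisense lncRNA ENSG00000286596 also runs through the PCDH7 window, and the lncRNA RNF32-DT, likewise antisense, through the RNF32 window. For each promoter the 30 bases with the most CpGs and the 30 bases around its most isolated CpG are printed 5′ to 3′ on the plus strand, to show the promoters at their closest and widest CpG spacing. Capitals mark the CpGs.
PCDH7, most CpGs, chr4:30720110-30720139: CGccCGgcCGtgCGctttCGcCGgctaaCG
PCDH7, most isolated CpG, chr4:30719435-30719464: gaaatttaccagccCGagggagggaaaaca
RCN3, most CpGs, chr19:49527516-49527545: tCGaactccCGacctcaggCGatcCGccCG
RCN3, most isolated CpG, chr19:49527656-49527685: tagaagtgttggaaCGtacacctctttctt
RNF32, most CpGs, chr7:156640146-156640175: aCGgaCGaCGccaggcagtCGgCGcctgCG
RNF32, most isolated CpG, chr7:156639356-156639385: tttccttgtattttCGgccaaatttcttct
The dense 30 bases of RCN3 occur 10 times in hg38 on either strand, and the other 5 stretches occur 1 time each. In the dense stretch of PCDH7, mC at Knockdown averaged 97.4% in the clones and 53.6% in the bulk populations. It has 7 CpGs and at least 34 reads in each library, summed over the 7. In the dense stretch of RCN3, with 5 CpGs and at least 44 reads summed over them, the same averages were 86.5% and 41.6%. The isolated CpG of RNF32, 136 bp from its nearest neighbour and read at least 9 times per library, stood at 78.6% in Cl.3, 81.8% in Cl.6, 48.0% in Cl.9, 45.5% in R1 and 34.6% in R2 at Knockdown, so Cl.9 was close to R1. The other 3 stretches held fewer reads, and the dense stretch of RNF32 had none in Cl.3 at Recovery.

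The 3 promoters are denser in CpGs than most methylated promoters. PCDH7 held 72 CpGs, RNF32 66 and RCN3 61, against a median of 43 over all promoters tested. Among the 4530 promoters with at least 80% mC in all 5 Baseline libraries the median was 22, and 92.7%, 90.5% and 88.3% of those held fewer CpGs than PCDH7, RNF32 and RCN3. CpGs with no other CpG closer than 20 bp, here called low-density, numbered 3 of 72 in PCDH7, 2 of 66 in RNF32 and 4 of 61 in RCN3. Their share was thus 4.17%, 3.03% and 6.56%, where the median of the 4530 methylated promoters was 38.5%. The ratio of observed to expected CpGs was 0.707 for PCDH7, 0.740 for RCN3 and 0.743 for RNF32, with a GC content of 60.9%, 54.8% and 56.9%.

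All 3 promoters were nearly fully methylated at Baseline in every library, between 93.8 and 98.6%. The PCDH7 promoter stood at 98.0% (Cl.3), 98.4% (Cl.6), 96.1% (Cl.9), 98.6% (R1) and 98.2% (R2). At Knockdown it stood at 94.6, 98.1 and 88.3% in the clones and at 37.8 and 38.8% in the bulk populations. The lowest clone was thus far above both bulk populations, and Cl.6 had barely changed. Its mC fell by 3.79 ± 3.76 points (SD, n = 3 clones) in the clones and by 60.1 ± 0.959 points (SD, n = 2 populations) in the bulk populations. The clone mean depends on the clones and CpGs taken, at -1.81 points without Cl.9, -5.55 without Cl.6 and -0.304 over those CpGs that every library read 5 times or more. The 45 promoter values rest on 201 to 1090 reads each, counted at each CpG covered. Their 95% Wilson intervals, which are meant for counting error only, were 2.37 to 7.62 points wide. They treat counts from the same read as independent, so they are too narrow even for counting error.

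RCN3 lost the most of the 3 in the clones. Its promoter stood at 97.8, 93.8 and 96.0% in Cl.3, Cl.6 and Cl.9 at Baseline and at 91.9, 85.5 and 78.9% at Knockdown. In R1 and R2 it went from 97.1 and 94.9% to 38.6 and 30.3%. Every clone lost some methylation, Cl.9 most, and the bulk populations ended well below all clones. The mean fell by 10.5 ± 5.87 points in the clones (SD, n = 3) and by 61.5 ± 4.35 points in the bulk populations (SD, n = 2).

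RNF32 lay between the others in the clones. Its promoter stood at 96.0, 97.4 and 98.2% in Cl.3, Cl.6 and Cl.9 at Baseline and at 92.3, 88.1 and 86.4% at Knockdown. In R1 and R2 it went from 95.7 and 98.6% to 42.6 and 34.2%. The order of the clones by loss was the same as for RCN3, with Cl.3 losing least and Cl.9 most. The mean fell by 8.29 ± 4.15 points in the clones (SD, n = 3) and by 58.8 ± 7.96 points in the bulk populations (SD, n = 2). Over the 7 CpGs that every library read 5 times or more, the clones fell by 13.4 points and the bulk populations fell by 29.3.

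**Figure D1:**
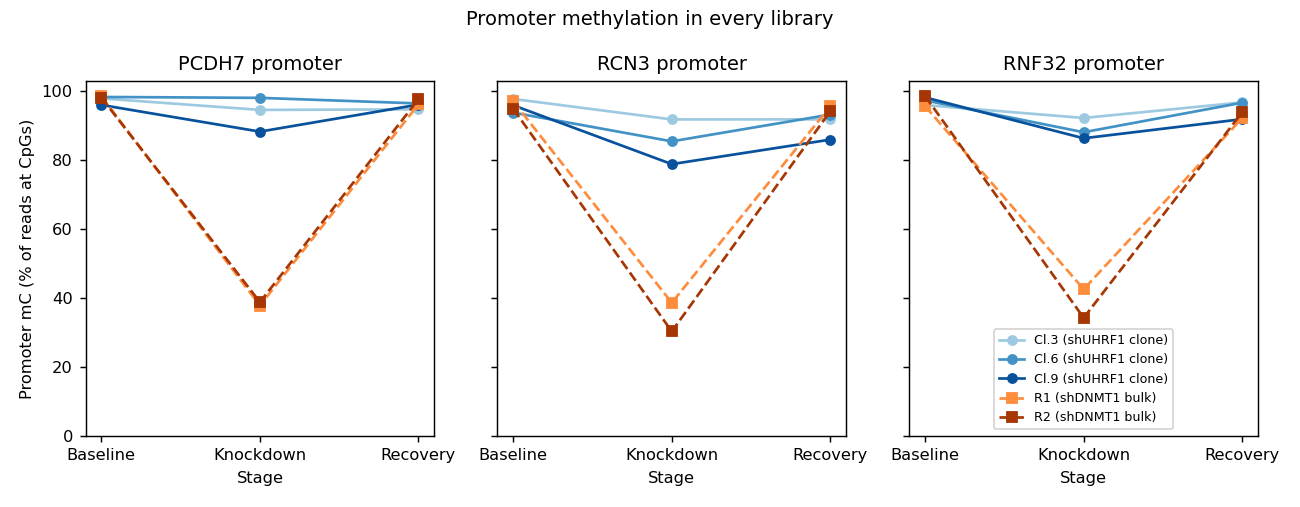
Promoter mC (percent of reads at CpGs, vertical axis) of PCDH7, RCN3 and RNF32 at Baseline, Knockdown and Recovery in each of the 15 libraries. Circles with solid lines are the 3 shUHRF1 clones, which stayed at 78.9% or above, and squares with dashed lines are the 2 shDNMT1 bulk populations, which dropped to between 30.3 and 42.6% at Knockdown and stood at 92.2% or above at Recovery.

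Most methylated promoters changed otherwise. The median change of the 4530 promoters with high Baseline mC was -21.8 points among clones and -43.2 in bulk cells, and among the 529 of them with at least 61 CpGs it was -17.6 and -39.3 points. The 3 were picked for a small loss in the clones and a large loss in the bulk populations, with no stated limits, so their place among the 4530 is set by the choice. A loss in the clones no larger than that of RCN3 was seen in 124 of the 4530 promoters, and a loss in the bulk populations no smaller than that of RNF32 in 121. Just outside the values of the 3 lay MMP23B, a matrix metalloproteinase gene with 85 promoter CpGs, which fell by 10.6 ± 10.6 points in the clones and by 59.9 ± 0.909 in the bulk populations. RHBDD1, which encodes a rhomboid-like membrane protease and has 47 promoter CpGs, also lay close, with changes of -7.17 ± 5.58 and -56.4 ± 1.26 points. A smaller loss in the clones than that of PCDH7 was seen in 0.0221% of the 4530 promoters, and than those of RNF32 and RCN3 in 0.795% and 2.72%. Over the 4530 promoters the number of CpGs and the change at Knockdown correlated with a Spearman coefficient of 0.355 in the clones and 0.181 in the bulk populations. This is a description across promoters, which share the libraries and differ in depth.

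**Figure D2:**
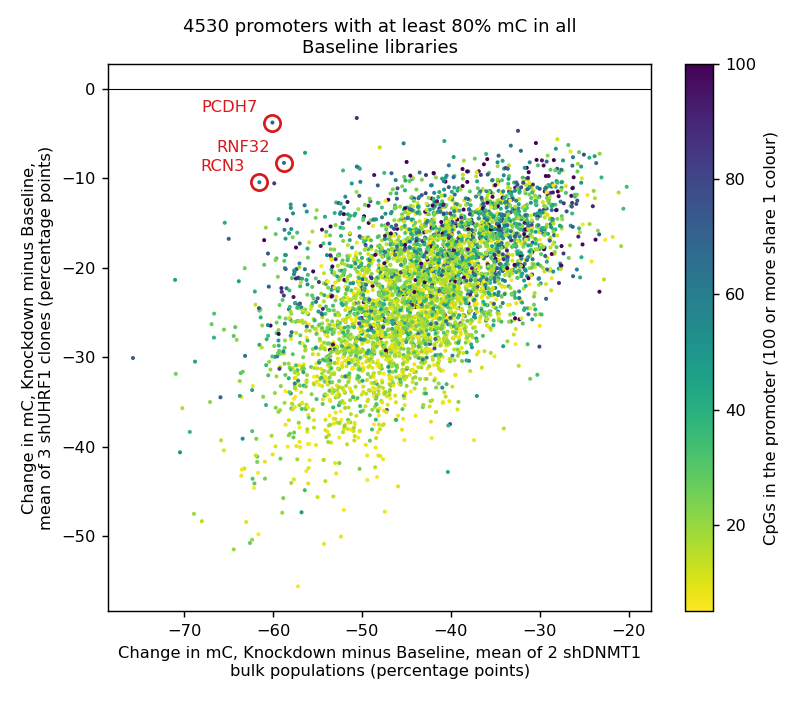
Change in promoter mC from Baseline to Knockdown, in percentage points, of the 4530 promoters with at least 80% mC in all Baseline libraries, with the mean of the 2 shDNMT1 bulk populations on the horizontal axis and of the 3 shUHRF1 clones on the vertical axis. Each point is a promoter coloured by its number of CpGs, and the 3 ringed promoters lie at the upper left edge, between -10.5 and -3.79 points in the clones and between -61.5 and -58.8 points in the bulk populations.

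CpG by CpG, few promoter sites were read at least 5 times in every library. They were 13 of 72 in PCDH7, 20 of 61 in RCN3 and 7 of 66 in RNF32. In PCDH7 none of the 13 fell by 30 points or more in any clone, while 10 did in R1 and 12 in R2. In RCN3 such a fall was seen at 0 of 20 CpGs in Cl.3, 1 in Cl.6, 6 in Cl.9, 19 in R1 and 18 in R2. In RNF32 it was seen at 0 of 7 in Cl.3, 1 in Cl.6, 1 in Cl.9, 2 in R1 and 3 in R2. Every one of these CpGs lost more in the bulk mean than in the clone mean. The CpG with the largest mean clone loss in RNF32 was the isolated one at chr7:156639370 shown above, which fell by 25.5 points in the clones and by 56.1 in the bulk populations. In RCN3 it was the CpG at chr19:49527613, 20 bp from its nearest neighbour, with changes of -32.7 and -78.7 points.

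The size of the bulk loss differed between these well-read CpGs and the rest. Over the 13 well-read CpGs of PCDH7 the bulk mean fell by 41.9 ± 3.91 points and over its other 59 CpGs by 66.5 ± 2.86 (SD, n = 2). For RCN3 the values were -52.1 ± 6.91 over 20 CpGs and -69.3 ± 2.60 over 41, and for RNF32 they were -29.3 ± 7.63 over 7 and -63.5 ± 7.59 over 59. In the clones the corresponding means for RNF32 were -13.4 ± 7.60 and -6.47 ± 2.81 (SD, n = 3), so over the well-read CpGs of RNF32 clones and bulk populations were closer than over the whole window. The number of reads moved as well. Over the other 59 CpGs of RNF32 it was on average 5.19 times higher at Knockdown than at Baseline in the bulk populations and 1.02 times in the clones. Over the whole RNF32 promoter the reads rose 4.21-fold in R1 and 3.37-fold in R2, when the libraries as a whole held 1.39 and 1.08 times as many reads. For PCDH7 the rises were 1.75-fold and 2.18-fold, and for RCN3 1.94-fold and 2.12-fold, with rises for RCN3 of 1.32-fold to 1.95-fold in the clones too. The part of these read numbers in the promoter values was not tested.

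Spacing to the nearest CpG went with the loss in the clones around all 3 promoters. Over the promoter and 5 kb either side, the CpGs used had at least 5 reads in every library and at least 85% mC in all Baseline libraries. Around PCDH7 the clone mean fell by 6.50 ± 2.62 points at 49 CpGs with a neighbour within 2 to 9 bp, by 11.5 ± 4.93 at 16 with 10 to 19 bp, by 14.8 ± 5.99 at 14 with 20 to 49 bp and by 28.9 ± 13.1 at 8 with 50 bp or more. In the bulk populations the same classes fell by 50.7, 51.7, 48.7 and 45.9 points, a flatter course. Around RCN3 the clones fell by 13.0 ± 9.32, 24.5 ± 11.3, 29.4 ± 15.5 and 27.2 ± 12.5 points, and around RNF32 by 11.2 ± 4.86, 13.3 ± 6.23, 17.3 ± 8.78 and 22.2 ± 9.80. In the bulk populations the classes around RCN3 changed by -46.7, -52.0, -54.3 and -45.3 points, so the widest class lost least, unlike in the clones. Around RNF32 the bulk populations also lost more at wider spacing, from 28.2 points lost at 2 to 9 bp to 48.3 at 50 bp or more. Around RCN3 the widest class lost no more than the one before it. In each clone the class of closest CpGs lost least around each gene, and Cl.3 lost least of the clones in every class. CpGs of a window share reads and libraries, so the classes are not replicates. The classes also take in CpGs of the promoters themselves, which are mostly closely spaced and were picked on these Knockdown values. The values at close spacing are thus partly set by the choice.

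**Figure D3:**
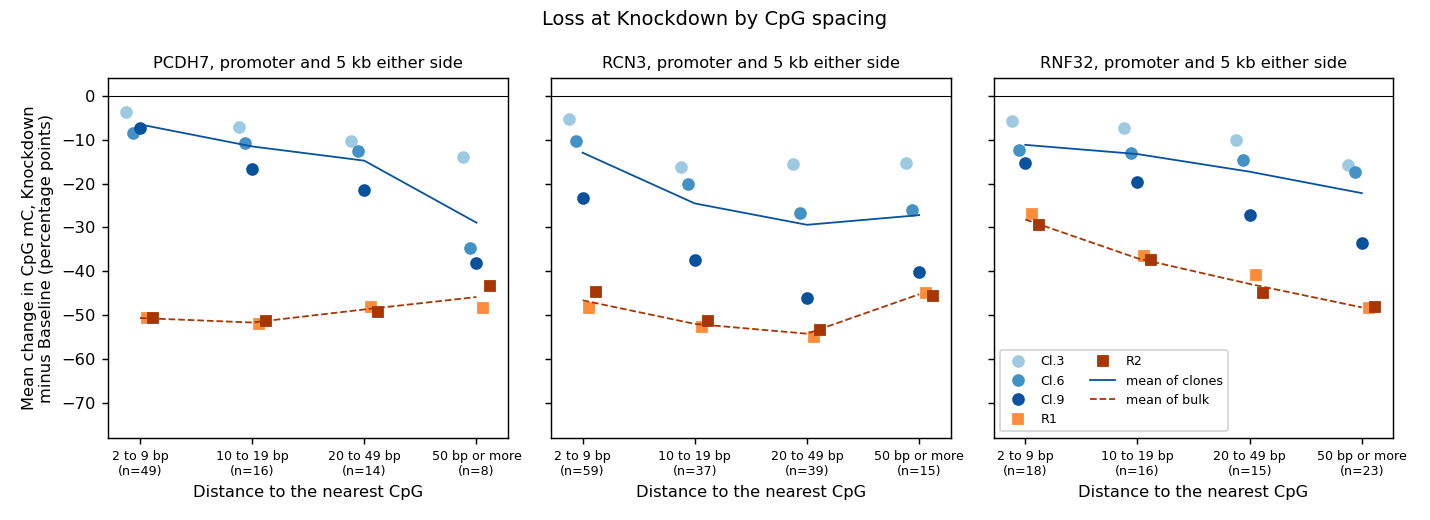
Mean change in mC from Baseline to Knockdown, in percentage points, of highly methylated CpGs within each promoter and 5 kb either side, by the distance to the nearest CpG (the number of CpGs is under each class). Circles are the clones and squares the bulk populations, with lines through the means. Around PCDH7 the clone mean went from -6.50 points at 2 to 9 bp to -28.9 at 50 bp or more while the bulk mean stayed between -51.7 and -45.9. The promoter CpGs among them were picked on these values.

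In bins of 200 bp the 3 loci had different surroundings. PCDH7 sits in a long CpG-rich block that was methylated at Baseline wherever it was read. In some libraries the averages over it rest little on the part from 1400 to 2000 bp downstream. There PCDH7 had bins of 21, 35 and 29 CpGs with as few as 4, 0 and 0 reads. From 2800 bp upstream to 2800 bp downstream of its 5′ end, 438 CpGs averaged 97.9 ± 0.409% in the clones and 97.4 ± 0.501% in the bulk populations at Baseline, 89.7 ± 3.82% and 38.2 ± 0.478% at Knockdown, and 94.7 ± 1.60% and 96.7 ± 0.333% at Recovery. Further upstream, from 4400 to 3200 bp before the 5′ end, the summed reads of 23 CpGs gave 0.338 to 15.1% in the 15 libraries, with single bins up to the 38.8% of Cl.3 at Baseline between 3600 and 3400 bp. The lone CpG in the bin from 4200 to 4400 bp downstream, read as few as 11 times, stood at 64.3% in Cl.3, 53.3% in Cl.6, 18.5% in Cl.9, 37.5% in R1 and 38.5% in R2 at Knockdown. Cl.3 and Cl.6 were above both bulk populations there and Cl.9 was below them. The limits of these blocks were set after the bins had been seen.

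RNF32 has a stretch of low methylation downstream of its 5′ end, which in bins of 200 bp was seen from 200 bp on. Where it begins was not resolved more finely. The summed reads of the 81 CpGs from 200 to 1000 bp downstream gave 0.485 to 8.21% in the 15 libraries, with single bins up to the 22.1% of Cl.6 at Baseline between 800 and 1000 bp. The 52 CpGs in the 600 bp before the 5′ end, by contrast, averaged 97.3 ± 1.15% in the clones and 97.6 ± 1.13% in the bulk populations at Baseline. At Knockdown they averaged 92.0 ± 3.52% and 36.3 ± 5.09%. The 23 CpGs of the first 200 bp downstream lay between these levels at Baseline, at 65.4, 71.2 and 74.8% in Cl.3, Cl.6 and Cl.9, 56.5% in R1 and 66.2% in R2. Further annotated exons of RNF32, the first at chr7:156640674-156640737, begin inside the stretch of low methylation. The antisense lncRNA RNF32-DT also has its 5′ end there, at chr7:156640654. In a window of 500 bp either side, which takes in part of it, the bulk populations fell by 18.3 points on average and the clones fell by 11.1, so the gap between them was much smaller there.

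RCN3 stands in a region that was methylated on both sides of its promoter. In the 5 kb upstream mC fell by 25.4 ± 11.8 points in the clones and by 50.8 ± 0.826 in the bulk populations, and in the 5 kb downstream by 23.3 ± 9.69 and 50.4 ± 0.916. The clones thus lost more in both flanks, where 32.4% and 32.2% of CpGs were of low density, than in the promoter. The upstream flank takes in the 3′ end of the neighbouring gene FCGRT, annotated up to chr19:49526428. RCN3 had 5 bins with 10 or more CpGs, high Baseline mC and at least 20 reads in every library. Their median change was -18.3 points in the clones, from -26.9 to -9.24, and -51.8 in the bulk populations. The smallest clone loss among these 5 was in the bin from 600 to 400 bp upstream of the 5′ end, with 13 CpGs. It went from 94.4 to 85.2% in the clone mean and from 96.2 to 39.2% in the bulk mean. The dense 30 bases of RCN3 that occur 10 times in hg38 lie in this bin. Elsewhere in the promoter the clones changed by -17.6 points from 400 to 200 bp upstream (9 CpGs, at least 21 reads). From 800 to 600 bp upstream (8 CpGs) they changed by -10.7. The dense bins on either side of the 5′ end had fewer reads and are not among the 5. In the 200 bp before it, with 23 CpGs and as few as 2 reads, the clones changed by -19.6 points. In the first 200 bp downstream, with 14 CpGs and as few as 8 reads, they changed by -7.24, a smaller loss. The bin from 2200 to 2400 bp downstream, with 6 CpGs, stood at 58.2, 50.7 and 37.1% in Cl.3, Cl.6 and Cl.9 at Knockdown and at 32.3% in R1 and 53.9% in R2. The clones and the bulk populations overlapped there.

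**Figure D4:**
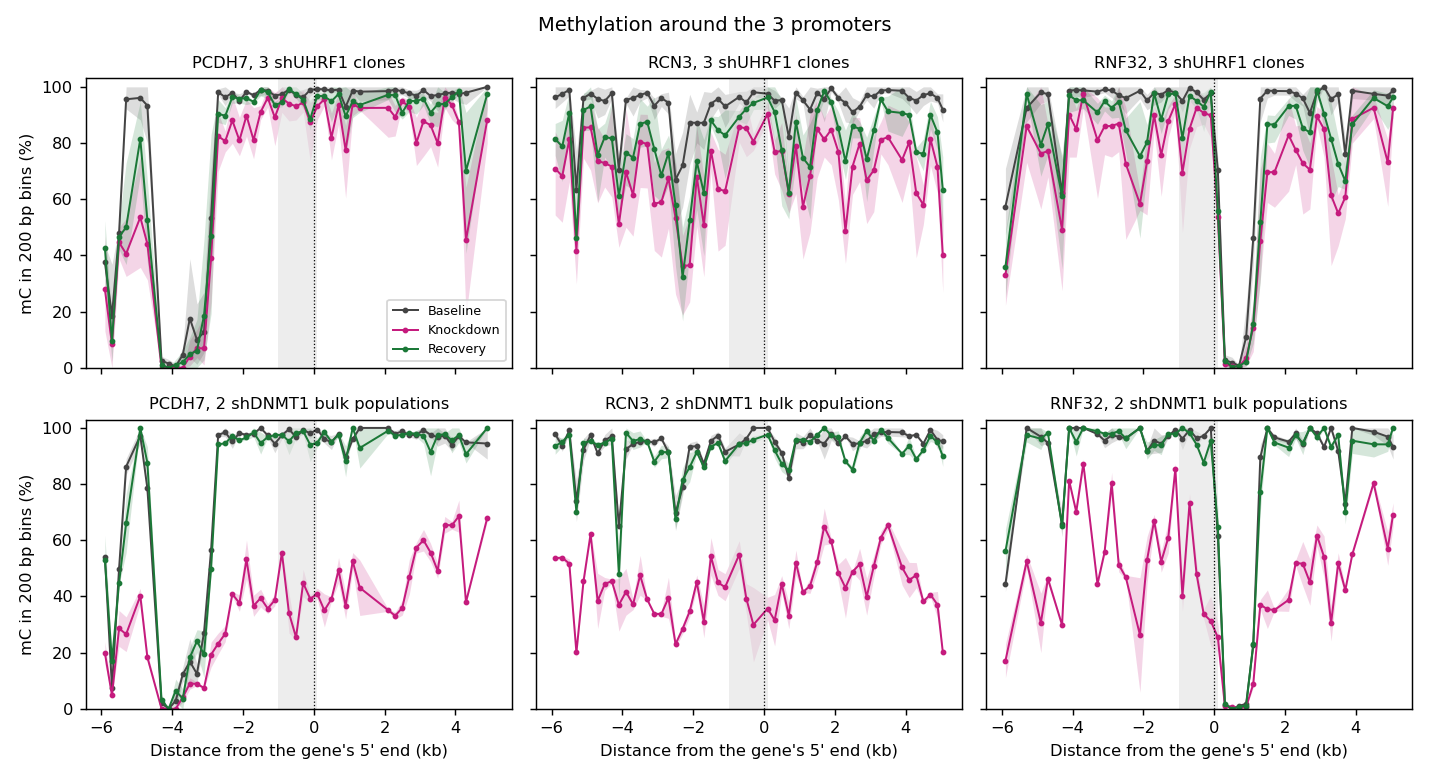
Methylation in 200 bp bins (mC in percent, vertical axis) against the distance from the 5′ end in kb, for the clones (upper row) and the bulk populations (lower row). Lines are means over populations, bands span the lowest to the highest population, grey marks the promoter window, and bins under 5 reads in any library are left out. Across the PCDH7 block the Knockdown mean of the clones was 89.7%, below their 97.9% at Baseline, and that of the bulk populations was 38.2%. Within the block the clones fell by 16.8 points from 400 to 600 bp downstream, more than in the promoter. Both Knockdown lines run low upstream of PCDH7, with block means of 2.78% in the clones and 5.45% in the bulk populations. The same holds downstream of RNF32 (1.53 and 0.657%).

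Gene bodies did not share the small loss of the promoters. Over the gene beyond its first 1 kb, PCDH7 (2900 CpGs, 63.7% of low density) fell by 21.6 ± 4.13 points in the clones and by 36.2 ± 0.0773 in the bulk populations. The body of RCN3 fell by 21.8 ± 10.6 and 43.0 ± 1.55 points and that of RNF32 by 20.4 ± 9.06 and 38.0 ± 2.10. The nearest protein-coding promoters did not have this pattern either, and none of the 6 reached 80% mC in all Baseline libraries. FCGRT, the neonatal Fc receptor gene, has its 5′ end 21.2 kb to the left of that of RCN3. Its promoter fell by 20.9 ± 12.1 points in the clones and by 39.1 ± 0.00365 in the bulk populations. SHH, the sonic hedgehog gene 827.8 kb to the left of RNF32, fell by 23.7 ± 7.14 points in the clones and fell by 32.8 ± 2.54 in the bulk populations. STIM2, ARAP2, PRRG2 and LMBR1, the other neighbours, had a Baseline library at 16.7% or below and lost 12.3 points or less.

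The domain lists that the authors called for each library placed the 3 promoters differently after the knockdowns. At Baseline all of the PCDH7 and RCN3 windows and at least 86.6% of the RNF32 window lay in highly methylated domains in every population. In R1 and R2 at Knockdown PCDH7 and RCN3 lay wholly in partially methylated domains, with 46.2 and 79.9% of the PCDH7 window and 46.6 and 59.1% of the RCN3 window also in unmethylated regions. RNF32 lay in partially methylated domains over 64.9 and 59.6% of its window there, with 34.9 and 57.9% in unmethylated regions. In Cl.3 at Knockdown PCDH7 and RCN3 stayed wholly in highly methylated domains, while 78.0% of the RNF32 window lay in them and the rest in an unmethylated region. In Cl.6 PCDH7 and RNF32 stayed wholly in highly methylated domains, while none of RCN3 did and 33.7% of it lay in a partially methylated domain. In Cl.9 at Knockdown no listed domain covered PCDH7, a partially methylated domain covered all of RCN3, and another covered 50.9% of RNF32. No promoter window lay in a low-methylated region in any clone. At Recovery the PCDH7 window lay in highly methylated domains in all 5 populations, and RCN3 did in 4, with no listed domain over it in Cl.9. For RNF32 the share at Recovery was 84.7% or more in every population. These lists come from the same reads, so they are no second measurement.

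At Recovery the question is whether the promoters returned to their Baseline level, and whether they did so alike under both shRNAs. PCDH7 stood at 94.8% (Cl.3), 96.5% (Cl.6), 96.2% (Cl.9), 96.2% (R1) and 97.7% (R2). In the same order of clones, RCN3 stood at 91.9, 93.3 and 86.0% in the clones and at 95.6 and 94.2% in the bulk populations. RNF32 stood at 96.8, 96.7 and 91.9% in the clones and at 92.2 and 93.9% in the bulk populations. Over the whole genome mC at Recovery was 68.0% (Cl.3), 66.4% (Cl.6), 53.1% (Cl.9), 72.9% (R1) and 72.8% (R2). In each promoter the bulk populations had regained between 49.7 and 63.9 points since Knockdown. The clones had regained between 0.0184 and 8.58 points, except that PCDH7 in Cl.6 fell by a further 1.62.

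Relative to Baseline, mC at Recovery had changed by -1.66 ± 1.65 points for PCDH7, -5.48 ± 4.72 for RCN3 and -2.07 ± 3.75 for RNF32 in the clones (SD, n = 3). In the bulk populations the changes were -1.42 ± 1.31, -1.07 ± 0.538 and -4.10 ± 0.892 points (SD, n = 2). The bulk value of PCDH7 was -2.35 in R1 and -0.490 in R2, and 0.239 over its well-read CpGs. That of RNF32 was -0.658 over its well-read CpGs and 6.84 in the window of 500 bp either side. The clone value of RNF32 was -3.32 over its well-read CpGs, -3.67 as their mean and 1.82 in that window. The clone values moved with single clones, to -0.894 points for PCDH7 without Cl.3 and -2.54 without Cl.9, to -3.24 for RCN3 without Cl.9, and to 0.0495 for RNF32 without Cl.9 and -3.50 without Cl.3. Exact two-sided sign-flip permutation tests gave p = 0.5, 0.25 and 0.75 in the clones, where 0.25 is the smallest value 3 populations allow. With 2 populations 0.5 is the smallest possible value, and it was reached for all 3 promoters. An exact permutation test of the 3 clones against the 2 bulk populations, which can go no lower than 0.2, gave p = 0.9, 0.4 and 0.5.

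In the test across all promoters, edgeR's quasi-likelihood test on methylated and unmethylated read counts, RCN3 was called lower at Recovery than at Baseline in the clones. Its log2 odds of methylation had changed by -1.36 (adjusted p = 0.00293), and it was lower in 3 of 3 clones. The call was lost without Cl.9, where the change was -0.89 (adjusted p = 0.106), and without the population block (-1.27, adjusted p = 0.0608). PCDH7 and RNF32 were not called, with changes of -0.80 (adjusted p = 0.103, lower in 2 of 3 clones) and -1.02 (adjusted p = 0.0600, lower in 2 of 3 clones). So 1 of the 3 promoters was called. Of all 18477 promoters 65% were called lower, and of the 4530 with high Baseline mC 95.6% were. This contrast is partly set by the choice. The 3 were picked for a small loss from the same Baseline libraries in the same clones, which then went on to Recovery. The calls near the threshold moved with single clones, since PCDH7 was called by edgeR without Cl.9 (-1.29, adjusted p = 0.0390) and RNF32 without Cl.3 (-1.50, adjusted p = 0.0138). Without Cl.9, in contrast, the edgeR change of RNF32 was -0.05 (adjusted p = 0.950), so its value rests largely on that clone. The window and the CpGs taken moved the calls too. PCDH7 was called by edgeR in a window of 500 bp either side (-1.30, adjusted p = 0.0158). RNF32 was called over its CpGs with 5 or more reads (-2.18, edgeR adjusted p = 0.0213), and in the 500 bp window its change was 0.10.

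In the bulk populations none of the 3 promoters and 0% of all promoters were called at Recovery by edgeR, nor any by limma. At an unadjusted p under 0.05, edgeR counted 599 promoters, 506 of them lower. The log2 odds had changed by -0.83 for PCDH7, -0.36 for RCN3 and -1.41 for RNF32. Without R1 these changes were -0.35, -0.19 and -2.19, and without R2 they were -1.43, -0.60 and -0.90. RNF32 had an unadjusted p of 0.0202 and an adjusted p of 1.00, was lower in both populations, and its loss was larger than that of 91.5% of the 4530 methylated promoters. Over its 7 well-read CpGs that loss was smaller, at -0.658 points and -0.52 in log2 odds. The difference between the shRNAs in the change to Recovery was called for none of the 3. With a lower value for shUHRF1, 17.3% of all promoters and 35.8% of the 4530 were called. The same Baseline libraries and populations served to pick the 3, so this contrast too is partly set by the choice. The differences in log2 odds were 0.03 for PCDH7 (adjusted p = 0.975), -0.99 for RCN3 (adjusted p = 0.214) and 0.39 for RNF32 (adjusted p = 0.701). When a population was left out, that of RCN3 ran from -1.63 (without Cl.6) to -0.53 (without Cl.9). No promoter was called in this comparison without R1 or without R2, so it needs both bulk populations.

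Among the 4530 methylated promoters the median change at Recovery was -11.5 points in the clones and -1.18 in the bulk populations. A smaller loss in the clones was seen in 0.309% of them for PCDH7, 0.419% for RNF32 and 10.0% for RCN3. As these values share their Baseline and their clones with the values that chose the promoters, they are a description.

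Promoters of related genes, listed by family, show how far the pattern went. The non-clustered protocadherins were represented by 9 of 10 genes, since PCDH12 did not pass the filter on CpGs and reads. At Knockdown all 8 other than PCDH7 were called lower in the clones and in the bulk populations, where 84.7% and 86.9% of all promoters were. Their median change in log2 odds was -1.56 in the clones, against -1.44 over all promoters, and -2.30 in the bulk populations, against -1.89. PCDH9 and PCDH10, also adhesion proteins, had dense promoters (94 and 65 CpGs) that were as methylated at Baseline as that of PCDH7 (98.1 and 97.7% in the clones). They fell by 8.02 ± 3.70 and 8.60 ± 4.48 points in the clones, but by only 29.7 ± 3.43 and 26.3 ± 6.26 in the bulk populations, far from the 60.1 of PCDH7. PCDH8 and PCDH18 fell by 26.5 ± 11.2 and 26.8 ± 8.68 points in the clones and by 40.7 ± 0.997 and 44.8 ± 8.11 in the bulk populations. At Recovery 5 of the 9 were called lower in the clones (median -1.03, against -1.04 over all promoters), namely PCDH8, PCDH9, PCDH10, PCDH17 and PCDH18, where 65% of all promoters were. In the difference between shRNAs PCDH8 was called (adjusted p = 0.0495), and it was the 1 of 9 to be so, where 17.3% of all promoters were.

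RCN3 was the methylated member of its family. The other genes of the CREC group of reticulocalbins and related calcium-binding proteins, RCN1, RCN2, CALU and SDF4, averaged 8.58 to 27.3% at Baseline in the clones, against 95.9% for RCN3. At Knockdown RCN1 and RCN2 were called lower under both shRNAs, and CALU and SDF4 under neither, where 84.7% of all promoters were called lower for shUHRF1 and 86.9% for shDNMT1. RCN1 fell by 11.3 ± 8.41 points in the clones and by 13.5 ± 1.40 in the bulk populations. The median change in log2 odds over the 4 was -0.41 in the clones and -1.21 in the bulk populations, against -1.44 and -1.89 over all promoters. At Recovery RCN3 was the 1 of the 5 called lower in the clones, where 65% of all promoters were, with a list median of -0.45 against -1.04.

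The promoters with the most similar mC over the 15 libraries were sought by the root mean square difference. The closest to PCDH7 was HSPA1L, a gene of the heat shock protein 70 family with 87 promoter CpGs, at 3.41 points. HSPA1L changed by -3.28 ± 6.80 points in the clones and -50.6 ± 1.53 in the bulk populations. The next to PCDH7 were RNF32 itself, at 3.85 points, and BSCL2, the gene of the lipid droplet protein seipin, at 3.91. The closest to RCN3 were RHBDD1, MTARC1 and MMP23B, at 2.70, 2.85 and 2.98 points, and the closest to RNF32 were HOXA5, a homeobox gene, RHBDD1 and BSCL2, at 2.89, 3.21 and 3.57. PCDH7 and RCN3 differed from each other by 5.76 points and RCN3 and RNF32 by 3.78, so each of the 3 had at least 1 promoter outside the group that was closer to it than either of the others.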

How the data were processed

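Whole-genome bisulfite sequencing data of 15 HCT116 libraries were used. The authors deposited raw counts for each CpG and library, namely methylated reads and covering reads, in 3 tables with 29456478 positions each, made with the authors' Meth10X pipeline per the study's methods, with hg38 named in the submitters' processing notes. The 29401360 positions on chromosomes 1 to 22, X and Y were used. The authors' domain lists hold the start, end and class of domains called with MethylSeekR, and bedtools 2.25.0, named in the submitters' processing notes, was used for highly methylated domains. Duplicate handling was not given in the sources used here. All value columns were mapped to samples by their names.

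Counts were summed over promoters of protein-coding genes (GENCODE 44) that held 5 or more CpGs and, in each library, 50 or more reads. edgeR 4.0.16 (R 4.3.3) fitted methylated and unmethylated counts of all 15 libraries in a methylation design with the population as a block, and calls were Benjamini-Hochberg adjusted p-values under 0.05, two-sided. limma 3.58.1 on log2((methylated + 1)/(unmethylated + 1)) was an alternative, as were other windows, read minimums, fits without the block and leaving out each population. The script was tested on simulated counts. Exact permutation tests used the change of each population in points, and SDs are over populations. CpGs and promoters are not replicates. The block takes out differences in level between populations. The edgeR p-values thus rest on how the changes between stages differ among populations and on the spread of the counts. All p-values speak for these populations only.

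The labels give the pairing: a clone or replicate name marks 1 population at its 3 stages. Across promoters, a library's difference from its group mean correlated with that of its Baseline library at r of 0.304 to 0.427 in clones and of -0.00634 and 0.0278 in bulk populations. No 2 libraries of a group held the same counts, since the mean chi-square per promoter was 3.21 or more. As a read counts at each CpG it covers, this check cannot tell separate populations from repeated sequencing of 1 culture. The 3 promoters and the gene lists were chosen with earlier results of these data known. Genes named were the 3 promoters, 2 family lists, the nearest protein-coding 5′ end on either side and the 3 promoters most alike in mC over the libraries. MMP23B and RHBDD1 as the promoters just outside the choice were named after their values were seen. Sequences are from the hg38 genome. Python 3.11.15 with numpy 2.4.6, pandas 2.3.3 and matplotlib 3.10.9 was used.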

Additional observations from a re-analysis of the deposited data

How the results depend on the processing

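Depth limits single CpGs most, since few promoter CpGs had 5 reads in every library. Counts are from separate fits, and their overlap was not counted. At Recovery for shUHRF1, 12006 promoters were called. With at least 200 reads per promoter the count was 7596 of 13396 tested, and leaving out a population gave 7913 (without Cl.9) to 12738. For the difference between shRNAs 3204 were called. The count was 411 from Recovery libraries only, 1722 with at least 200 reads, 1479 by limma and 1609 in a window of 500 bp either side, and leaving out a population gave 0 (without R1 or R2) to 5992 (without Cl.3), with 1982 without Cl.6 and 647 without Cl.9. Without the population block, which pairs libraries of a population, these counts were 5475 and 0. In log2 odds at Recovery, signs turned for changes that were not called. For PCDH7 the shDNMT1 change was 0.34 over CpGs with at least 5 reads, and the difference was -0.70 over those CpGs, -0.53 from Recovery libraries only, -0.67 in the 500 bp window and -0.46 to 0.63 when a population was left out (-0.46 without Cl.9 and without R1). For RNF32 the 500 bp window, which takes in the stretch of low methylation, gave 0.10 for shUHRF1, 0.41 for shDNMT1 and -0.32 for the difference, which was -1.66 over CpGs with at least 5 reads and -0.10 to 1.37 when a population was left out (-0.08 without Cl.3). The RNF32 shUHRF1 change was called over CpGs with at least 5 reads (-2.18, edgeR adjusted p = 0.0213), and that of PCDH7 in the 500 bp window (-1.30, edgeR adjusted p = 0.0158). In points at Recovery, PCDH7 in the bulk populations was at 0.239 over CpGs with at least 5 reads and 0.262 as their mean, PCDH7 in the clones at -0.127 as that mean, RNF32 in the bulk populations at -0.658 over those CpGs and -0.362 as their mean, and RNF32 in the 500 bp window was at 1.82 in clones and 6.84 in bulk populations, while leaving out a clone gave -3.50 to 0.0495 (without Cl.9) for RNF32. Leaving out a bulk population gave -2.35 to -0.490 for PCDH7 and -1.45 to -0.689 for RCN3, which over CpGs with at least 5 reads was at -1.85, as their mean at -1.97 and in the 500 bp window at -2.12. Alternatives at Knockdown were chosen after seeing the data. Over CpGs with at least 5 reads the bulk changes were -41.9, -52.1 and -29.3 points for PCDH7, RCN3 and RNF32, and as their mean -42.1, -53.4 and -27.7. In the 500 bp window they were -66.8 for RCN3 and -18.3 for RNF32. In the clones RNF32 was at -13.4 over CpGs with at least 5 reads, and PCDH7 at -0.304 over them and 0.0869 as their mean, and at -5.55 (without Cl.6) to -1.81 (without Cl.9) when a clone was left out. Beyond the window's own content, the cause was not tested. Apart from these and from the calls of RCN3, PCDH7 and RNF32 at Recovery that are given above as lost or gained without a clone or the block, the alternatives run kept each value's direction and side of the threshold, and counts within 1.5 times.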
